A study of Mus musculus with 25 samples.

Results

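The genes described here are the immediate early genes Fos, Fosb, Jun, Junb, Jund, Egr1, Ier2, Atf3, Myc and Nr4a1, measured in mouse lung under calorie restriction (CR). The rule goes by name and uses no measured value, although the names were picked with earlier results of these data known: every probe set of the Affymetrix MG-U74Av2 array whose only annotated symbol was 1 of these 10 names was taken. This gave 15 probe sets for all 10 genes, out of 12422 probe sets that are not controls and 8251 genes with a symbol of their own. Of the 15, 10 probe sets of 9 genes passed the filter on dim signal, which asked that a probe set reach the array's median on at least 2 arrays. The only Myc probe set did not pass it.

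All lungs came from C57BL/6 mice, an inbred laboratory strain; no other genotype or treatment, and no age, is given in the sources used here. CR mice received a diet reduced by 2/3 and were killed 2, 4, 12, 24, 48, 72 or 96 h after its start, with 2 arrays at each time. Control mice, called fed here, were taken at 2, 4 and 12 h on the same clock, with 2 arrays each, and at 0 h, with 4 arrays. The labels call the controls always fed but also attach the words for the reduced diet to them, so their feeding is not certain. The labels give the aim as following gene expression while the restricted lung loses alveoli, its sites of gas exchange.

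Immediate early genes are transcribed within minutes of a stimulus, before any new protein is made. Growth factors, mechanical stretch, hormones and stress reach them through MAP kinases, calcium and cyclic AMP, which act on factors such as CREB and SRF. Most encode transcription factors with short-lived RNA. FOS and JUN proteins pair to form the AP-1 factor, EGR1 binds GC-rich DNA, NR4A1 is an orphan nuclear receptor, ATF3 often acts as a repressor and MYC drives growth.

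The promoters of the 4 members whose signal changed in the average of the late CR times, as described below, are shown first. The sequences came from RefSeq (GRCm38.p6) and run from 250 bases before to 50 bases after the annotated start. Of the 10 members 7 had an entry; Egr1, Ier2 and Myc had none. Both strands were searched for the CArG box of SRF, the cyclic AMP response element TGACGTCA, its core TGACG, the AP-1 site TGANTCA, the GC box GGGCGG, the E-box CACGTG and the TATA box TATAAA. The whole element would also count as a core, and matches of the same motif may overlap. Each sequence reads 5′ to 3′ along its gene, and capitals mark every match on either strand.
Fos, chr12:85473640-85473939, plus strand: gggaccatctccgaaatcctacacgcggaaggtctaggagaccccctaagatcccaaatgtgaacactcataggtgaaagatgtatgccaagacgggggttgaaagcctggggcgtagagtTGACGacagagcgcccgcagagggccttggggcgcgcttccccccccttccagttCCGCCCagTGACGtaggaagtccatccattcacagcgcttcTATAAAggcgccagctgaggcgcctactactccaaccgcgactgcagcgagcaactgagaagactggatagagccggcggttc
Nr4a1, chr15:101266596-101266895, plus strand: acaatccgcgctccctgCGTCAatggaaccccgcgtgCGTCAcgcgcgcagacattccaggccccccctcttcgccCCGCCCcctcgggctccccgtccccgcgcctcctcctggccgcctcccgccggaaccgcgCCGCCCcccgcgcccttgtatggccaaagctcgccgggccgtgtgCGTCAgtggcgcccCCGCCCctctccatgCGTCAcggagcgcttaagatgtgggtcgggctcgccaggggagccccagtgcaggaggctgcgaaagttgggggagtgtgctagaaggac
Jun, chr4:95052173-95052472, minus strand: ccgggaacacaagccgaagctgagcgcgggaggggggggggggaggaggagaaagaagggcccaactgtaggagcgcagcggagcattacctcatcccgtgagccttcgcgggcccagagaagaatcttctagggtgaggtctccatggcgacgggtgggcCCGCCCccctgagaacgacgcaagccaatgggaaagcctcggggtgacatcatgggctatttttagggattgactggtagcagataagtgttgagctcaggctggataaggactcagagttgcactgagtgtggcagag
Atf3, chr1:191183284-191183583, minus strand: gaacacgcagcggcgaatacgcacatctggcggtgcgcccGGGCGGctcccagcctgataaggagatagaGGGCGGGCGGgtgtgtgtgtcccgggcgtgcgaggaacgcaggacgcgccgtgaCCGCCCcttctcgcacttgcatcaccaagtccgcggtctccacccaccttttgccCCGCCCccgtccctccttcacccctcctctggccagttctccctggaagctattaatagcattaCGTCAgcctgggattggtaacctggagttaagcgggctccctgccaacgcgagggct

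The core TGACG, part of the site that CREB binds, was found in 5 of the 7 member promoters, against 20.8% of all 32851 promoters in the table. Nr4a1 held 4 copies and Fos held 2, while 1.03% of all promoters held 3 or more. Fosb, Junb and Atf3 held 1 each, and Jun and Jund held none. The copy nearest to the start began 66 bases before it in Fos, 40 bases before it in Nr4a1 and 7 bases before it in Atf3.

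The GC box was present in 5 of the 7 promoters (35.7% of all) and the letters of the TATA box in those of Fos, 33 bases before the start, and Junb, where the match began at the start itself (13.6% of all). The CArG box (1.63% of all), the whole cyclic AMP response element (1.79%), the AP-1 site (7.81%) and the E-box (7.15%) had no match in these 7 windows. The matches describe letters in a window and measure no binding. G and C made up 46.7% of the Jund promoter and 58.7% (Fos) to 72.3% (Nr4a1) of the rest. The median over all promoters was 52.7%, and the part of base composition in these matches was not tested.

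Signals below are linear probe set intensities without a unit, which the authors had scaled to a common level and which were scaled again to a common array median, by 0.920 to 1.05. The highest signal was 74440 to 99043 on 12 arrays (CR 2, 12, 24 and 48 h with number 1 of fed 0 h and fed 12 h) and 31595 to 54315 on the other 12 (CR 4, 72 and 96 h with number 2 of fed 0 h and fed 2 and 4 h). Fed 0 h was the only group with 2 numbers, each with arrays a and b. The sources used here do not say whether the letters stand for separate mice or for the same RNA hybridised again, and if the same RNA, p-values reflect technical spread alone. Lung is a mix of cell types, in which fewer cells of a type and less RNA per cell cannot be told apart.

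**Figure D1:**
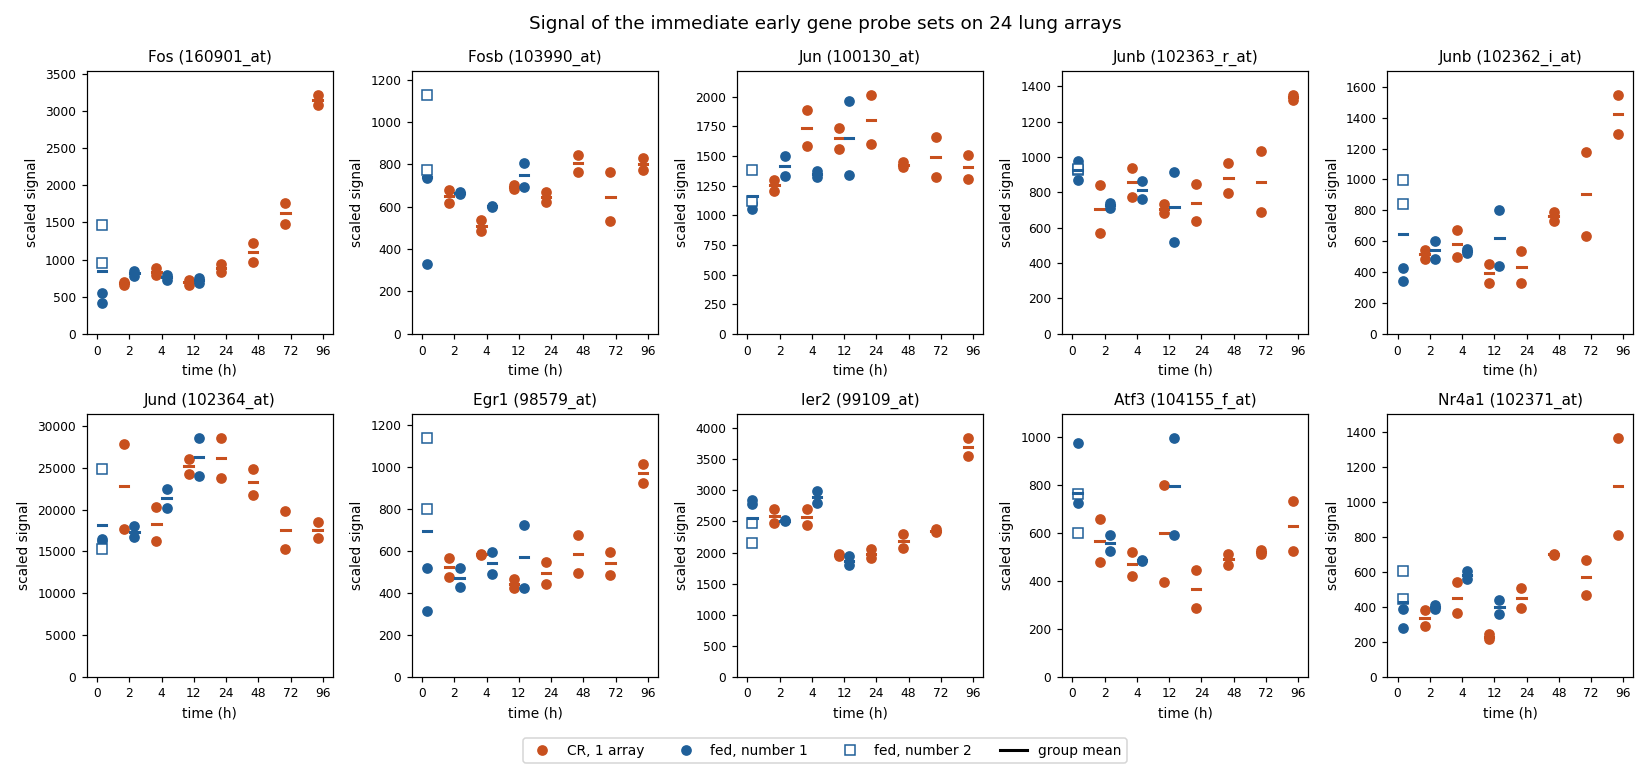
Scaled signal (vertical axes, no unit, from 0) of the 10 probe sets past the filter against time in h (horizontal axes, evenly spaced categories). Each point is 1 array, with CR in orange left of fed in blue, fed 0 h number 2 as open squares and group means as bars. Fos reached 3222 and 3078 at CR 96 h, and its fed 0 h arrays spread from 413.3 to 1468.

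The levels of Fos, Nr4a1 and Ier2 differed among the 11 groups by more than the spread between arrays. In the moderated F test of limma the adjusted p was 0.00695 for Fos, 0.00714 for Ier2 and 0.00930 for Nr4a1, and 9.26% of all 7440 probe sets past the filter were called. The adjusted p of the other 7 probe sets ran from 0.127 (Junb (_i_at)) to 0.867 (Fosb). The group mean was highest at CR 96 h for Fos, Nr4a1, Ier2, Egr1 and both Junb probe sets, 6 of 10 against 11.1% of all probe sets. CR 96 h was singled out after these values had been seen.

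Fos, the partner of the JUN proteins in AP-1, was measured best by 1 of its 2 probe sets. On CR arrays its signal was 697.5 and 659.2 at 2 h, 790.2 and 888.1 at 4 h, 720.9 and 662.5 at 12 h, 837.3 and 938.6 at 24 h, 1227 and 967.5 at 48 h, 1485 and 1758 at 72 h, and 3222 and 3078 at 96 h. On fed arrays it was 413.3 and 543.6 (number 1) and 1468 and 955.8 (number 2) at 0 h, 852.3 and 779.2 at 2 h, 730.1 and 796.8 at 4 h, and 685.3 and 753.6 at 12 h. The arrays of CR 24, 48, 72 and 96 h did not overlap from each time to the next, and each later time lay higher. Below CR 48 h, every group overlapped with its neighbour in the order of means, and fed 0 h had the widest spread (845 ± 475, SD, n = 4). Between CR 72 h and the average of CR 24 and 48 h the difference was 1.64-fold (95% confidence interval 1.29 to 2.10, adjusted p = 0.0260), in a contrast chosen after the values were seen, by which 3.08% of all probe sets were called.

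Fosb, another FOS family member, was not called in the F test over the 11 groups (adjusted p = 0.867). Its fed 0 h arrays, at 330.6 and 734.8 (number 1) and 1129 and 773.3 (number 2), held both its lowest and its highest signal, and the CR arrays ran from 483.5 at 4 h to 846.7 at 48 h.

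Of the JUN family, Jun, the main partner of FOS, had its highest group mean at CR 24 h (1807 ± 297, SD, n = 2) and its lowest at fed 0 h (1165 ± 150, n = 4). On CR arrays it was 2017 and 1597 at 24 h, 1410 and 1446 at 48 h, 1319 and 1662 at 72 h and 1303 and 1508 at 96 h, against 1106, 1049, 1122 and 1385 on fed 0 h arrays. CR 24 and 48 h lay wholly above fed 0 h, whereas CR 72 and 96 h overlapped with it through fed 0 h 2b. Neighbours in the order of group means overlapped for Jun except fed 4 h and CR 2 h.

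Junb, which competes with JUN for partners, was read by a pair of probe sets of the same accession that correlated at r = 0.415 over the 24 arrays. On the probe set with the suffix _i_at the CR arrays had 327.4 and 534.2 at 24 h, 790.6 and 732.0 at 48 h, 632.3 and 1177 at 72 h and 1296 and 1549 at 96 h, against 341.3 and 424.1 (number 1) and 838.6 and 993.8 (number 2) at fed 0 h. On that with the suffix _r_at the CR 96 h arrays had 1354 and 1323, against 977.6, 869.0, 926.3 and 934.0 at fed 0 h. Both probe sets had both CR 96 h arrays above the other 22, and on the _i_at probe set the fed 0 h numbers did not overlap.

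Jund, the JUN family member known for steady expression, stayed between 15275 (fed 0 h 2a) and 28601 (CR 24 h 1a), a span of 1.87-fold that was the narrowest of the 10 probe sets. All neighbours in its order of groups overlapped.

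Egr1, a zinc-finger factor induced by growth factors, had 926.3 and 1016 on the CR 96 h arrays and 421.7 to 676.8 on the other CR arrays. On fed arrays it ran from 314.4 (fed 0 h 1a) to 1141 (fed 0 h 2a), so that fed 0 h alone covered the range of all other groups.

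Nr4a1, the orphan nuclear receptor Nur77, had 507.6 and 396.4 on CR arrays at 24 h, 704.4 and 698.2 at 48 h, 470.9 and 670.7 at 72 h and 809.8 and 1369 at 96 h. On fed arrays it had 279.3 and 389.6 (number 1) and 605.5 and 445.7 (number 2) at 0 h. CR 48 and 96 h lay wholly above fed 0 h, and CR 12 h, with 243.7 and 214.3, lay below every other array. At 2 and 4 h Nr4a1 had 382.2 and 291.0, then 363.6 and 540.0 on CR arrays, against 388.3 and 408.2, then 561.6 and 603.2 on fed arrays, and at 12 h the fed arrays had 356.6 and 441.3.

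Ier2, which encodes a small nuclear protein, was lowest at 12 h and highest at CR 96 h. On CR arrays it had 2468 and 2698 at 2 h, 2447 and 2699 at 4 h, 1975 and 1952 at 12 h, 2057 and 1905 at 24 h, 2079 and 2293 at 48 h, 2377 and 2328 at 72 h and 3553 and 3850 at 96 h. Fed arrays had 2845, 2778, 2157 and 2468 at 0 h, 2528 and 2501 at 2 h, 2992 and 2793 at 4 h and 1801 and 1937 at 12 h. CR 96 h lay above all other arrays, fed 4 h had the next highest mean but overlapped with fed 0 h, and CR 48 and 72 h did not overlap with each other.

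Atf3, a stress-induced relative of AP-1 proteins, was read best by a probe set whose suffix, _f_at, marks probes that may match related sequences. On CR arrays it had 446.5 and 285.2 at 24 h, 467.1 and 511.1 at 48 h, 529.1 and 511.2 at 72 h and 732.0 and 524.8 at 96 h, against 721.9, 974.2, 761.4 and 596.7 at fed 0 h. CR 24, 48 and 72 h lay wholly below fed 0 h. A dimmer probe set with the suffix _r_at, from the same accession and not past the filter, ran the other way (r = -0.476 over 24 arrays), with 287.1 and 380.8 at CR 96 h against 50.06 to 219.3 at fed 0 h, so the course of Atf3 is uncertain.

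Myc, the growth-promoting E-box factor, had 25.5 to 144 and lay under the floor of 80.37 on 14 of 24 arrays. Its highest group mean was 127 ± 24.2 (SD, n = 2) at CR 96 h, close to the floor. Of the other probe sets that failed the filter, another of Fos was under the floor on 12 arrays, another of Egr1 on 16 and the dimmest of Atf3 on all 24. No change is given for these.

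**Figure D2:**
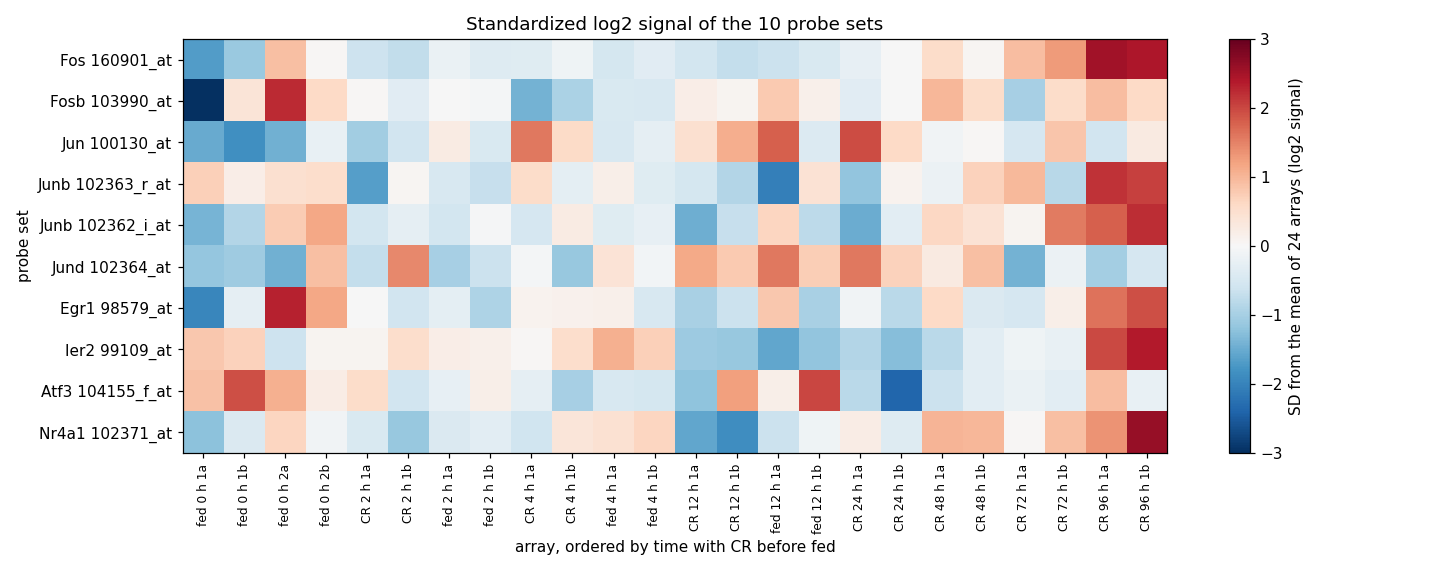
Standardized log2 signal of the 10 probe sets (rows) on the 24 arrays (columns, by time with CR before fed); the colour gives the number of SDs from the mean of the probe set over all arrays. Fos, Ier2, Nr4a1 and both Junb probe sets are above all other arrays on both CR 96 h arrays, and fed 0 h 1a and 2a lie on opposite sides for Fos, Fosb and Egr1.

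In the average of CR 24, 48, 72 and 96 h against fed 0 h, which has the same clock time by the labelled hours, Fos, Nr4a1 and Jun were higher and Atf3 was lower. Fos rose 1.99-fold (95% confidence interval 1.43 to 2.76, adjusted p = 0.00702), Nr4a1 rose 1.59-fold (1.19 to 2.12, adjusted p = 0.0280) and Jun rose 1.31-fold (1.09 to 1.57, adjusted p = 0.0361). Atf3 fell by 0.63 on the log2 scale (adjusted p = 0.0372). These are 4 of the 10 probe sets past the filter, at a background of 18.1% of all 7440 probe sets (9.85% higher, 8.24% lower). The median log2 change was 0.15 over the 10 and -0.0049 over all. For none of the 4 did the 8 CR arrays lie wholly to 1 side of the 4 fed 0 h arrays. The other 6 probe sets had log2 changes of -0.04 (Ier2) to 0.42 (Junb (_i_at)), with adjusted p-values of 0.268 to 0.999. Among cell type markers past the filter, 4 of 7 of heart muscle, 3 of 4 of B cells and 2 of 5 of smooth muscle fell in the same average, while 2 of 7 of endothelium and 1 of 3 of alveolar type II cells rose. None was called among those of macrophages, neutrophils, alveolar type I, club and ciliated, and erythroid cells; their part in the member changes was not tested.

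Leaving out 1 array at a time kept Fos in the late average in all 24 fits (adjusted p up to 0.0409), Nr4a1 in 19, Jun in 17 and Atf3 in 16. Without CR 72 h 1b, CR 96 h 1b, fed 0 h 1a or fed 0 h 1b only Fos was called, and without CR 24 h 1a, CR 48 h 1a or CR 48 h 1b 2 members were. CR 96 h was also left out of the average, with its arrays kept in the fit. Fos then stood at log2 0.63 (adjusted p = 0.0785) and Nr4a1 at 0.44 (0.152), neither called. With arrays a and b averaged to 1 value and times pooled into groups, none of the 10 was called, and the adjusted p of Fos was 0.233. Pooling puts the differences between times into the residual spread, so averaging of a and b alone was not tested.

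The late average depended on which fed 0 h arrays it was set against. Against number 1, 6 probe sets were higher and 1 was lower (49.4% of all probe sets called), and against number 2 none was called, with 2 of 10 at an unadjusted p under 0.05 (7.76% called). The numbers differed from each other in Fos, Fosb, Junb (_i_at) and Egr1. All 4 were lower in number 1, by log2 changes of -1.32, -0.92, -1.26 and -1.24 (number 1 minus number 2; adjusted p = 3.83e-05, 0.0102, 0.00298 and 0.00141), while 39.9% of all probe sets differed. The late change of Fos was log2 1.65 against number 1 and 0.33 against number 2 (adjusted p = 0.217). Egr1 stood at 0.62 and -0.62, on opposite sides. Comparisons by number came from a fit with 12 groups, whose residual spread differs from that of the 11 groups.

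Among arrays of the high signal range (CR 24 and 48 h, set against number 1), Fos was 2.07-fold (1.62 to 2.65, adjusted p = 5.22e-05) higher, and among those of the low range (CR 72 and 96 h, set against number 2) it was 1.90-fold (1.49 to 2.43, adjusted p = 0.00118) higher. The first comparison called 6 of the 10 (46% of all) and the other called Fos and Ier2 (10.7% of all). Ier2 changed in opposite directions, at log2 -0.44 (adjusted p = 0.00247) in the high range and 0.35 (0.0391) in the low range. Atf3 stood at log2 -1.01 (0.00483) and -0.25 (0.614).

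Set against fed 2, 4 and 12 h together, the late CR times were called higher only in Fos, 1.95-fold (1.46 to 2.60, adjusted p = 0.00549), with 6.34% of all probe sets called. Nr4a1 did not pass, at 1.46-fold (1.13 to 1.88, adjusted p = 0.0755), nor did Jun, at 1.04-fold (0.889 to 1.22, adjusted p = 0.800). With the signal range as a block Nr4a1 (log2 0.65, adjusted p = 0.00430), Junb (_i_at) (0.71, 0.00406) and Egr1 (0.47, 0.0281) were called too. Only fed 0 h has arrays of both ranges, so that block rests on the difference between the fed 0 h numbers. Without that block, Fos was not called once CR 96 h was left out of the average (log2 0.60, adjusted p = 0.114). Nor was Fos called with letters averaged and times pooled (0.96, 0.417). These fed groups and fed 0 h share the CR arrays they are compared with.

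Taken singly, the late times called few members before 96 h. At CR 24 h Atf3 fell by 1.08 on the log2 scale (adjusted p = 0.0471; 2.82% of all probe sets called), and Jun, with both arrays above fed 0 h (11.7% of all), was at 1.55-fold (1.20 to 2.00, adjusted p = 0.0599). At CR 48 h none of the 10 was called, with 2 at an unadjusted p under 0.05 (5.44% of all called). At CR 72 h Fos was higher, 2.16-fold (1.35 to 3.43, adjusted p = 0.0469), with 5.82% of all called. That call depended on the fed 0 h number: Fos at CR 72 h was 3.41-fold (2.57 to 4.52, adjusted p = 1.75e-06) against number 1 and 1.36-fold (1.03 to 1.81, adjusted p = 0.216), not called, against number 2, which shares its signal range.

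**Figure D3:**
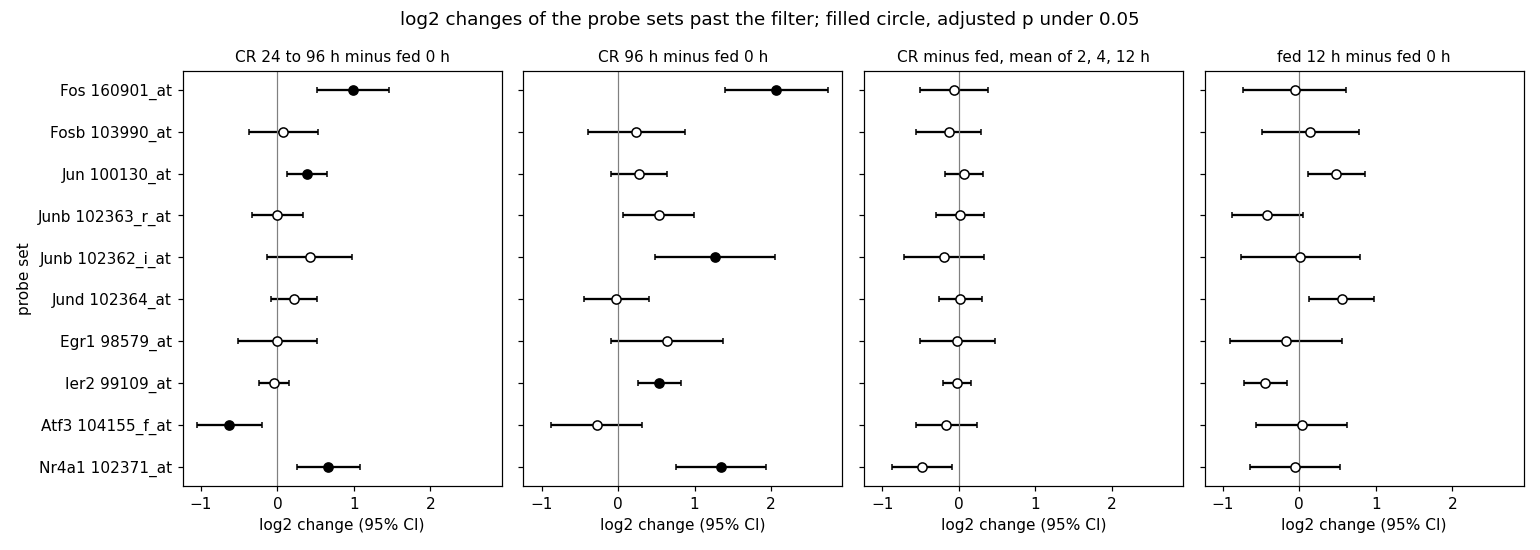
log2 change with 95% confidence interval (horizontal axes) of each probe set past the filter in 4 comparisons; filled circles mark an adjusted p under 0.05. In the average of the late times 4 circles are filled, at CR 96 h also 4, and none in the early times or between fed 12 h and fed 0 h.

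At CR 96 h, Fos, Nr4a1, Ier2 and Junb were higher than at fed 0 h. Fos rose 4.20-fold (95% confidence interval 2.64 to 6.69, adjusted p = 0.000489), Nr4a1 rose 2.54-fold (1.69 to 3.83, adjusted p = 0.00648), Ier2 rose 1.45-fold (1.20 to 1.76, adjusted p = 0.0209) and Junb rose 2.40-fold (1.40 to 4.13, adjusted p = 0.0490) on the _i_at probe set. These 4 of 10 stand beside 6.49% of all probe sets called and 3.92% called higher, and the median log2 change was 0.53 over the 10 and 0.01 over all. The other Junb probe set was at 1.45-fold (1.05 to 2.00, adjusted p = 0.152) and Egr1 at 1.56-fold (0.940 to 2.59, adjusted p = 0.267), while Fosb, Jun, Jund and Atf3 had adjusted p-values of 0.350 to 0.962. Both CR 96 h arrays lay above the other 22 arrays for Fos, Nr4a1, Ier2 and both Junb probe sets, 5 of 10 against 1.84% of all.

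The calls at CR 96 h rest on 2 arrays that may be 1 RNA. Without CR 96 h 1b only Fos was called, and without 1a Fos and Nr4a1 were. Fos was called in all 24 fits that left out 1 array, Nr4a1 in 23, Ier2 in 22 and Junb (_i_at) in 4. With only CR 96 h and fed 0 h in the fit none of the 10 was called, and the adjusted p of Fos was then 0.185.

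Against other arrays, in contrasts added after the values were seen, Fos and Ier2 passed each time. Against fed 0 h number 1, 6 of the 10 were higher (38.9% of all called), among them Fos, by a log2 change of 2.73. Against fed 0 h number 2, which shares the low signal range of CR 96 h, Fos was 2.66-fold (2.00 to 3.53, adjusted p = 7.70e-05) higher, Ier2 1.60-fold (1.34 to 1.92, adjusted p = 0.00131) and Nr4a1 2.03-fold (1.35 to 3.05, adjusted p = 0.0286), with 8.37% of all probe sets called. Against fed 2, 4 and 12 h, 6 of the 10 were higher (8.45% of all called): Fos 4.12-fold, Junb (_i_at) 2.55-fold, Nr4a1 2.33-fold, Egr1 1.87-fold, Junb (_r_at) 1.80-fold and Ier2 1.55-fold, with adjusted p-values of 4.18e-08 to 0.0153. Against the earlier late times, CR 24, 48 and 72 h, Fos was 2.72-fold (2.15 to 3.42, adjusted p = 0.000169), Ier2 1.71-fold (1.48 to 1.98, adjusted p = 0.000527) and Junb (_i_at) 2.18-fold (1.51 to 3.14, adjusted p = 0.0297) higher (1.21% of all called). Against the low-range fed arrays, number 2, fed 2 and fed 4 h, 5 of 10 were higher (7.82% of all called), among them Fos 3.49-fold and Nr4a1 2.13-fold. The shares of all probe sets given for these contrasts count calls in either direction. In all, 39 contrasts and F tests were made.

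**Figure D4:**
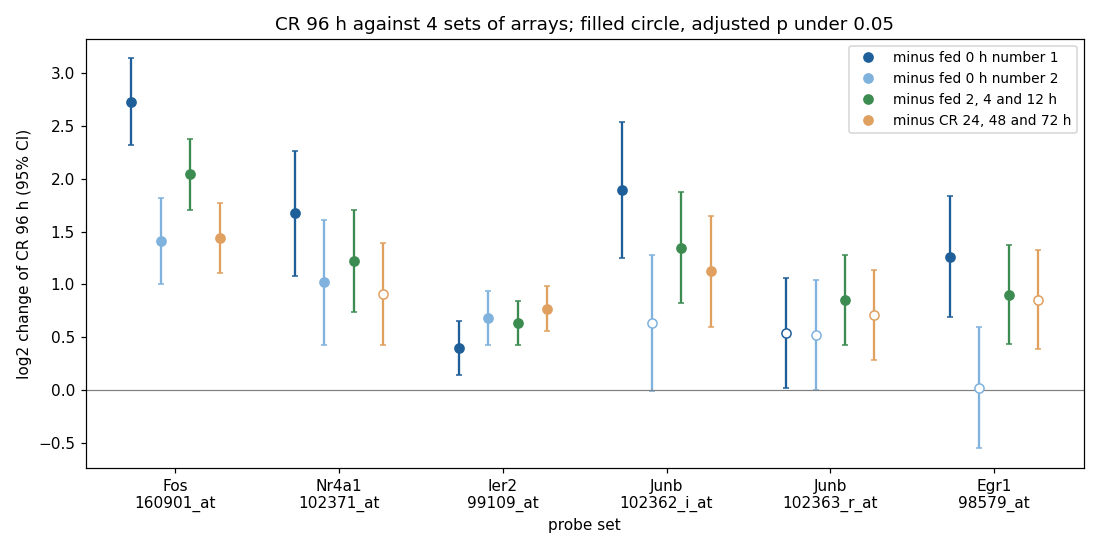
log2 change of CR 96 h (vertical axis, with 95% confidence interval) against fed 0 h number 1, fed 0 h number 2, the average of fed 2, 4 and 12 h, and the average of CR 24, 48 and 72 h, for 6 probe sets. Filled circles mark an adjusted p under 0.05; all 4 are filled for Fos and Ier2, 3 for Nr4a1 and for Junb (_i_at).

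Several other measures also differed between the CR 96 h and fed 0 h arrays. The 7 heart muscle markers summed to 12677 and 14168 on the CR 96 h arrays and to 25836 to 32980 on fed 0 h arrays, the 6 macrophage markers to 28288 and 31021 against 5166 to 24922, and the 5 smooth muscle markers to 8797 and 10042 against 12232 to 18149. Sums of 4 alveolar type I markers (61789 and 62512 against 63977 to 69918) and 3 club and ciliated cell markers (39361 and 40500 against 44352 to 76405) also lay below fed 0 h. The 4 B-cell markers overlapped, with 1934 and 2350 against 2220 to 9351. No marker of these lists was under the floor on all arrays of either group. For Gapdh, signal at the 3′ end over that at the 5′ end, a sign of RNA quality, was 1.24 and 1.29 at CR 96 h against 1.76 to 2.02 at fed 0 h, and for actin it was 1.79 and 1.80 against 1.87 to 2.31. Fed 2 h overlapped with CR 96 h in some of these measures. There Gapdh was 1.01 to 1.27, the macrophage sum 24788 to 30617 and the smooth muscle sum 8605 to 9626. Its heart muscle sum, 15604 to 18161, and its B-cell and club and ciliated cell sums lay above CR 96 h. Its alveolar type I sum and actin ratio lay below. The part of these differences in the member changes was not tested.

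The course within the late times differed for Ier2, at log2 -0.36, -0.22, -0.11 and 0.54 at 24, 48, 72 and 96 h against fed 0 h. Its adjusted p in the F test among the 4 late effects was 0.0224, with 0.578% of all probe sets called, and that of Fos was 0.0643. For the other 8 the adjusted p ran from 0.207 to 0.983.

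In the first 12 h of restriction no member was called. In the average of the differences at 2, 4 and 12 h, CR minus fed of the same hour, 0 of 10 passed limma (0.0269% of all probe sets), and 1 had an unadjusted p under 0.05: Nr4a1, at log2 -0.48 (95% confidence interval -0.87 to -0.09, adjusted p = 0.999). The median log2 change was -0.04 over the 10 and -0.02 over all. The largest difference at 1 time was that of Nr4a1 at 12 h, log2 -0.80 (adjusted p = 0.824), where both CR arrays lay below both fed arrays (19.1% of all). The 95% confidence intervals were -0.51 to 0.38 for Fos and -0.21 to 0.17 for Ier2 on the log2 scale. At 2 h the CR arrays were of the high signal range and the fed arrays of the low one. With the range as a block the early change of Fos was log2 0.38 (adjusted p = 0.0847), against -0.06 without it. That block is estimated from fed 0 h alone, the only group with arrays of both ranges. It therefore carries the difference between the fed 0 h numbers over to the other groups. At the single times 0%, 0% and 0.148% of all probe sets were called at 2, 4 and 12 h, and the F test between those times called none (0% of all; members' adjusted p of 0.960 to 0.995).

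Between fed groups of different hours calls depended on the fed 0 h arrays used, and with all 4 no member was called. Between fed 12 h and fed 0 h 0 of 10 passed (1.92% of all), with 3 at an unadjusted p under 0.05. Ier2 was at log2 -0.45 (adjusted p = 0.0865), with both fed 12 h arrays below all 4 fed 0 h arrays (10.6% of all), Jun at 0.49 (0.155) and Jund at 0.56 (0.159). The median log2 change was -0.02 over the 10 and -0.04 over all. At fed 2 h 0 of 10 were called (0.0806% of all; none at an unadjusted p under 0.05), and at fed 4 h 0 of 10 (0.309% of all; 1 at an unadjusted p under 0.05, Atf3, log2 -0.63). Fed 12 h is of the high signal range, and against number 1, of the same range, Ier2 (log2 -0.59, adjusted p = 0.00145) was lower and Jun (0.59, 0.0205) and Jund (0.68, 0.020) were higher. Fos again turned with the control arrays, at log2 0.60 (adjusted p = 0.0252; 31% of all called) for fed 12 h minus number 1 and -0.72 (0.0264; 8.72% of all called) for fed 12 h minus number 2.

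Among the members themselves, log2 signals of Fos and Nr4a1 went together most closely over the 24 arrays (r = 0.794, Spearman's rho = 0.823), then those of Fos and Egr1 (r = 0.712) and of Fosb and Egr1 (r = 0.687). Jun and Jund went together (r = 0.566), and Jund and Ier2 went in opposite directions (r = -0.511). The arrays share groups, signal range and the pairing of a and b, so these values describe the 24 arrays only.

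Over the same arrays, 6715 other probe sets with a symbol of their own were ranked by their correlation with each member. Closest to Fos were F3, the tissue factor that starts blood clotting (r = 0.900), Stt3b of the oligosaccharyltransferase (0.823) and D17H6S56E-5 (0.822). Closest to Ier2 were Idh1, cytosolic isocitrate dehydrogenase (r = 0.894), the translation factor subunit Eif3j1 (0.820) and the poly(A) ribonuclease Parn (0.816). For Nr4a1 they were Zbtb22 (r = 0.778), the mRNA export factor Nxf1 (0.769) and the phosphate transporter Slc20a1 (0.769), and for Jun the calcium pump Atp2a3 (0.864), utrophin, Utrn (0.796), and Trak2 (0.794).

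Other genes of the immediate early response were followed in lists chosen with earlier results of these data known. Of 27 other immediate early transcription factors 18 were measured, and in the late average 6 rose and 1 fell (9.85% and 8.24% of all probe sets), with a median log2 change of 0.08 against -0.0049 over all probe sets. Per1, a clock gene, rose 4.08-fold (adjusted p = 1.08e-06), the CCAAT-binding factor Cebpd 2.22-fold (1.79e-06), Klf2, a flow-responsive factor, 2.94-fold (9.31e-05) and Cebpb 2.00-fold (9.45e-05). The gene that fell was Id2, an inhibitor of helix-loop-helix factors (log2 -0.44, 0.0404), named after its value was seen. At CR 96 h 5 rose (3.92% of all) and none fell, namely Per1, Cebpd, Klf2, Cebpb and, also named afterwards, Klf4.

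Of 38 effectors and feedback genes 28 were measured, and 10 rose (9.85% of all) and none fell (median log2 change 0.33). They included Errfi1, an inhibitor of EGF receptors (2.54-fold, adjusted p = 5.58e-08), Nfkbia, the NF-kappaB inhibitor (2.34-fold, 7.41e-07), the matricellular growth factor Ccn2 (2.31-fold, 9.73e-06) and Dusp1, a phosphatase that switches off MAP kinases (1.72-fold, 1.48e-05). At CR 96 h 9 rose (3.92% of all) and none fell.

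Among kinases and factors that act upstream of the members, 2 of 13 measured (27 listed) were called, both higher, a share no larger than the 18.1% of all probe sets called: Elk3, an SRF partner (2.14-fold, adjusted p = 0.00763), and the stress-activated kinase Mapk14 (1.33-fold, 0.0166). The kinase Mapkapk2 was at 1.24-fold (0.0726) and the cyclic AMP-responsive factor Crem at log2 -0.59 (0.0780). Of the bZIP relatives of FOS and JUN 12 of 17 were measured, and 3 rose and 1 fell (18.1% of all called). These were the endoplasmic reticulum stress sensor Atf6 (1.82-fold, 0.00889), the antioxidant factor Nfe2l2 (1.30-fold, 0.0142), the heme-regulated repressor Bach1 (1.77-fold, 0.0178) and, lower, Batf3 (log2 -0.45, 0.0464).

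For the MYC network 11 of 15 genes were measured, and 3 rose (9.85% of all) and none fell. They were Mxd4 (1.78-fold, adjusted p = 0.000531) and Mnt (2.49-fold, 0.0418), both antagonists that bind the MYC partner MAX, and nucleolin, Ncl (1.78-fold, 0.0178), while Max itself was at 1.47-fold (0.0632). Of 10 heat shock genes, which stress induces as fast as immediate early genes, 9 were measured, and in the late average (18.1% of all called) Hspa1b (2.07-fold, 0.0110) and Hspa1a (1.83-fold, 0.0336) rose, Hspe1 fell by 1.08 on the log2 scale (0.00669), and Hsp90aa1 was at log2 -0.31 (0.261). Hspa1a and Hspa1b are near-identical copies whose probes may not tell them apart. Between fed 12 h and fed 0 h 6 of the 9 heat shock genes rose (1.92% of all called, median log2 change 0.69). Set against fed 2, 4 and 12 h, late CR gave other counts (6.34% of all called). Of 18 transcription factors 6 were higher and 2 lower, and of 28 effectors 7 and 1. In the MYC network 1 of 11 was higher, and none of the 12 bZIP, 13 upstream or 9 heat shock genes was called. In fed 0 h number 1, 3 bZIP relatives were higher and 5 lower than in number 2 (39.9% of all called). For the MYC network these counts were 1 and 6, and upstream 1 and 1.

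At CR 96 h against fed 0 h, 1 of 11 MYC network genes and 1 of 13 upstream genes were higher (3.92% of all). None of the 12 bZIP relatives or the 9 heat shock genes was called there (6.49% of all called). In the early average no gene of these 6 lists was called. The smallest p belonged to Cebpd (log2 0.25) and Nfil3 (0.66) among the transcription factors, Errfi1 (0.34) and Ccn2 (0.43) among the effectors, Elk3 (0.43) and Araf (0.23) upstream, Atf6 (0.16) and Ddit3 (0.05) among the bZIP relatives, Mycl (0.39) and Odc1 (-0.14) in the MYC network, and Hspd1 (-0.70) and Dnaja1 (-0.14) among heat shock genes, each at an adjusted p of 0.999.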

How the data were processed

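Total RNA of mouse lung was measured on 24 MG-U74Av2 arrays in 11 groups. Values were linear probe set intensities as deposited; the arrays shared a trimmed mean of 800.4 to 800.494 (2% trimmed at each end), so they had been scaled by the authors, and no source used here gives their summary method. Each array was scaled again to a common median (deposited medians of 300.2 to 342.3), floored at 80.37, the 25th percentile, and taken to log2. Probe sets at or above their array's median on at least 2 arrays were kept, 7440 in all. Of 12488 probe sets 66 were controls, 10833 had 1 symbol, 396 several and 1193 none; 10817 matched a RefSeq gene by Entrez ID, and the platform annotation can be old.

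A single model over the 11 groups was fitted with limma 3.58.1 in R 4.3.3 (intensity trend, 13 residual degrees of freedom), with Benjamini-Hochberg adjustment over the 7440 and a threshold of 0.05. Comparisons by fed 0 h number, and those added after the values were seen, used 12 groups (12 residual degrees of freedom). The fit of 11 groups was tested on simulated data, for the late and early averages only. The number of arrays limits the precision.

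Members and lists were chosen with earlier results of these data known. All member probe sets are named. Of each other list, up to 4 genes by smallest p in the late average and up to 2 in the early average are named, from the brightest probe set of each gene, and the 3 probe sets most like a member are named for 4 members. Alternatives changed the scaling, floor, filter, variance model, control arrays, signal range and arrays left out. The letters a and b did not pair arrays: over 45 pairs of groups, deviations of same-lettered arrays correlated at -0.190 to 0.118, with 1 over 0.1. A single array of another type, whose title and description disagree, entered no comparison.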

Additional observations from a re-analysis of the deposited data

Results flagged for a closer look

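Jund had 1 fed 0 h array far from the other 3: 24799 on fed 0 h 2b, against 16201, 16473 and 15275. The gap to the nearest array was 0.874 of the range of the 4, above the critical value for 4 samples; chance alone gives such a gap in about 1 in 20 groups.

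The effect of CR on Ier2 differed among the late times, with an adjusted p of 0.0224 in limma's F test over the 4 differences from fed 0 h. The log2 change of Ier2 over those times, in order of time, was -0.36, -0.22, -0.11 and 0.54.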

How the results depend on the processing

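As reported, limma called 4 members in the late average, 0 in the early average, 0 between fed 12 h and fed 0 h, 1 in late CR against fed 2, 4 and 12 h, 4 at CR 96 h, 6 over the 7 single times, 0 over fed 2 and 4 h, 3 in the F test over 11 groups and 1 in the F tests between times. Leaving out 1 array at a time gave 1 to 5 in the late average, 1 to 4 at CR 96 h, 1 to 10 over the 7 times, 2 to 3 and 0 to 2 in the F tests, 0 to 1 at fed 12 h, 1 to 2 in late CR against fed 2, 4 and 12 h, and 0 in the early average and at fed 2 and 4 h. With no filter the counts were 2 late, 1 at fed 12 h and 3 over the 7 times, and with no intensity trend 3 over the 7 times. With array weights, whose estimation did not converge, they were 1 late, 2 against fed 2, 4 and 12 h, 2 at CR 96 h, 3 over the 7 times and 2 between times. With the letter as a replicate block the 7 times gave 3. With the signal range as a block they were 4 at fed 12 h, 4 against fed 2, 4 and 12 h and 2 at fed 2 and 4 h. They were also 15 over the 7 times, 6 over 11 groups and 4 between times. That block is estimated from the difference between the fed 0 h numbers alone. Letters averaged, with times pooled into groups, gave 0 late and 0 against fed 2, 4 and 12 h. Against number 1 alone they were 7 late, 4 at fed 12 h, 3 at fed 2 and 4 h and 19 over the 7 times; against number 2 alone 0, 1 and 2 for the first 3 of these. With only the groups compared they were 0 late, 2 against fed 2, 4 and 12 h, 0 at CR 96 h and 0 over the 7 times. Without both CR 48 h arrays 2 were called late. With CR 96 h left out of the averages but kept in the fit, 2 were called late and 0 against fed 2, 4 and 12 h. Within the low range 2 were called late.

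Of 1990 member changes tried, 97 took the opposite direction, 93 of them called neither way; 84 were no longer called and 27 newly called. Opposite log2 changes under the signal range block were 0.38 (Fos), 0.18 (Fosb), 0.23 (Junb _i_at) and 0.40 (Egr1) early, 0.60 (Fos), 0.45 (Egr1), -0.13 (Atf3) and 0.27 (Nr4a1) at fed 12 h, 0.0033 (Jund) for late CR against fed 2, 4 and 12 h and -0.22 (Fosb) at CR 96 h. Number 1 alone gave the same 4 fed 12 h values, 0.0047 (Junb _r_at) and 0.62 (Egr1, newly called) late and 0.10 (Jund) at CR 96 h. Number 2 alone gave -0.38 (Fosb), -0.21 (Junb _i_at) and 0.10 (Ier2) late, -0.32 (Fosb) and -0.62 (Junb _i_at) at fed 12 h and -0.22 (Fosb) at CR 96 h. The low range gave -0.39 (Fosb), 0.19 (Junb _r_at), -0.15 (Jund) and 0.35 (Ier2) late and 0.13 (Atf3) at CR 96 h; the high range gave 0.40 (Egr1) late. Without both CR 48 h arrays the late values were 0.022 (Junb _r_at), 0.033 (Egr1) and 0.020 (Ier2). With CR 96 h left out of the average, those against fed 2, 4 and 12 h were 0.042 (Jund) and -0.14 (Ier2). Fed 2, 4 and 12 h as control of CR 96 h gave -0.054 (Jun) and 0.069 (Atf3), 4 and 12 h alone gave 0.039 (Fos) and -0.14 (Jund) early, array weights gave -0.083 (Junb _i_at) at fed 12 h, and quantile normalization gave 0.026 and 0.18 (Jund) against fed 2, 4 and 12 h and at CR 96 h. Values as deposited gave 0.0076 (Junb _r_at) and 0.0084 (Egr1) late and 0.0052 (Fos) and 0.0043 (Nr4a1) at fed 12 h. Besides Egr1, 2 members were newly called in the opposite direction. These were Fos at fed 12 h, under the signal range block and with number 1 alone, and Ier2 late in the low range. The cause of these moves was not tested.

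Single arrays turned the sign of uncalled changes. Early, the ranges were -0.33 to 0.0047 (Atf3), -0.15 to 0.11 (Egr1), -0.044 to 0.0034 (Ier2), -0.023 to 0.16 (Jun), -0.12 to 0.15 (Junb _r_at) and -0.086 to 0.13 (Jund). At fed 12 h they were -0.35 to 0.41 (Atf3), -0.56 to 0.22 (Egr1), -0.35 to 0.26 (Fos), -0.20 to 0.39 (Fosb), -0.42 to 0.45 (Junb _i_at) and -0.25 to 0.12 (Nr4a1). At CR 96 h they were -0.11 to 0.48 (Fosb) and -0.10 to 0.14 (Jund), and in the late average -0.33 to 0.29 (Egr1), -0.27 to 0.32 (Fosb), -0.12 to 0.013 (Ier2) and -0.075 to 0.071 (Junb _r_at). For late CR against fed 2, 4 and 12 h they were -0.031 to 0.15 (Jun) and -0.085 to 0.0075 (Jund). Probe sets near the floor, such as that of Myc, give no change at this signal over background.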

Other observations

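A single array of another type, whose title names CR for 3 h and whose description speaks of refeeding, held 12 probe sets of the 10 members among 45037. Ranked within that array, Jund stood at percentiles 97.9 and 54.1 on its pair of probe sets, Jun at 92.9 and 71.5, Fos at 92.2, Egr1 at 83.9, Atf3 at 73.3, Nr4a1 at 68.0, Ier2 at 61.4, Fosb at 59.7, Junb at 38.8 and Myc at 29.8.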
